A study of Homo sapiens with 6 samples.

Results

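The chaperones and folding enzymes of the endoplasmic reticulum (ER), with 2 further genes of the unfolded protein response, were examined in H226 cells, an established line of human lung squamous carcinoma. The 10 genes were chosen by name from the table of read counts: *HSPA5*, *HSP90B1*, *CALR*, *CANX*, *PDIA3*, *PDIA4*, *PDIA6*, *DNAJB9*, *HERPUD1* and *XBP1*, out of 17222 gene names. Both groups were transiently transfected with an antisense oligonucleotide (ASO) and collected 48 h later. ASO_CTRL was the control oligonucleotide and ASO_LINC was directed against the long noncoding RNA *SWINGN*, with 3 libraries of total RNA in each group and first-strand cDNA primed with dT oligonucleotides. For this knockdown the study names a single oligonucleotide, ASO_LINC#3. Effects particular to that oligonucleotide and effects of *SWINGN* loss cannot be told apart here. The *SWINGN* transcript was not analysed here, so its depletion was not checked in these libraries. The comparison asks whether the output of the factors ATF6 and XBP1 changed in ASO_LINC, or whether other stress genes changed without it.

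Proteins that enter the ER are folded there by chaperones and by enzymes that form disulfide bonds. When unfolded proteins build up, the membrane sensors ATF6, IRE1 (encoded by *ERN1*) and PERK (encoded by *EIF2AK3*) start the unfolded protein response. Cleaved ATF6 and the spliced form of XBP1 activate chaperone and degradation genes, whereas PERK phosphorylates eIF2alpha, which favours the translation of ATF4 and the expression of *DDIT3* (CHOP), a branch that other eIF2alpha kinases can also start. Secretory and tumour cells depend on the chaperone branch for their protein output.

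Binding sites of these factors are short and well defined, so the sequences around the gene starts show which of the genes carry a textbook site. In RefSeq windows from 250 bases before to 50 bases after each annotated start (GRCh38.p14), 4 motifs were searched on both strands. The ER stress response element (ERSE), CCAAT and CCACG with 9 bases of any kind between them, was present in 27 of 35116 windows (0.0769%), and 8 of the 15 windows of these genes held it, in 6 of the 9 genes with a window. The related ERSE-II, ATTGG and CCACG with 1 base of any kind between them, was in 0.0541% of all windows and among these genes in that of *HERPUD1*. The genes were chosen as known genes of this response, so these shares describe them and enrichment was not tested. ERSE and ERSE-II share their half-sites, and no base of these genes' windows was matched by both. In the lines that follow, capitals mark the fixed letters of the motif, and each run is printed 5′ to 3′ on the strand that carries it.

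HSPA5, ERSE: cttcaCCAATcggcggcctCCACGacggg
HSP90B1, distal ERSE: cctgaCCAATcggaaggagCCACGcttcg
HSP90B1, proximal ERSE: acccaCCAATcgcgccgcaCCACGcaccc
CALR, ERSE: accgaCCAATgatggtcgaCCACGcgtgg
CANX, ERSE: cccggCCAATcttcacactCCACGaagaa
PDIA6, ERSE: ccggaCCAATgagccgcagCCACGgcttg
XBP1, ERSE: gctggCCAATcgcggagggCCACGaccgt
HERPUD1, ERSE-II: ggacgccgATTGGgCCACGttgggaga
HERPUD1, composite: gcacgggcTGATGcAAcccgccgc

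The *HSPA5* run lies at chr9:125241386-125241414, on the strand of the gene, with the first base of its motif 66 bases before the start. *HSP90B1* holds a pair, at chr12:103930211-103930239 on its own strand and at chr12:103930316-103930344 on the opposite strand, 194 and 89 bases before the start. That of *CALR*, at chr19:12938379-12938407, is on the opposite strand and begins 225 bases before the start. *CANX* has 4 annotated windows, of which 3 hold the same site at chr5:179698773-179698801. *PDIA6* holds its site in 1 of 2 windows, at chr2:10812848-10812876, and *XBP1* in 1 of 2, at chr22:28800598-28800626. *HERPUD1* alone of these genes held the C/EBP-ATF composite motif TGATGNAA, bound by ATF4 with a C/EBP partner, at chr16:56931958-56931981 beside its ERSE-II at chr16:56932017-56932043. The composite is short and was present in 3.62% of all windows.

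The XBP1-binding core TGACGTGG, present in 0.729% of all windows, was in 0 of the 15 windows. *PDIA4* and *DNAJB9* held none of the 4 motifs in these windows, which says only that these letters are absent there. *PDIA3* had no window in the table used. The map of motif positions shows that the sites lie at distances from 225 bases before a start to the start itself.

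**Figure D1:**
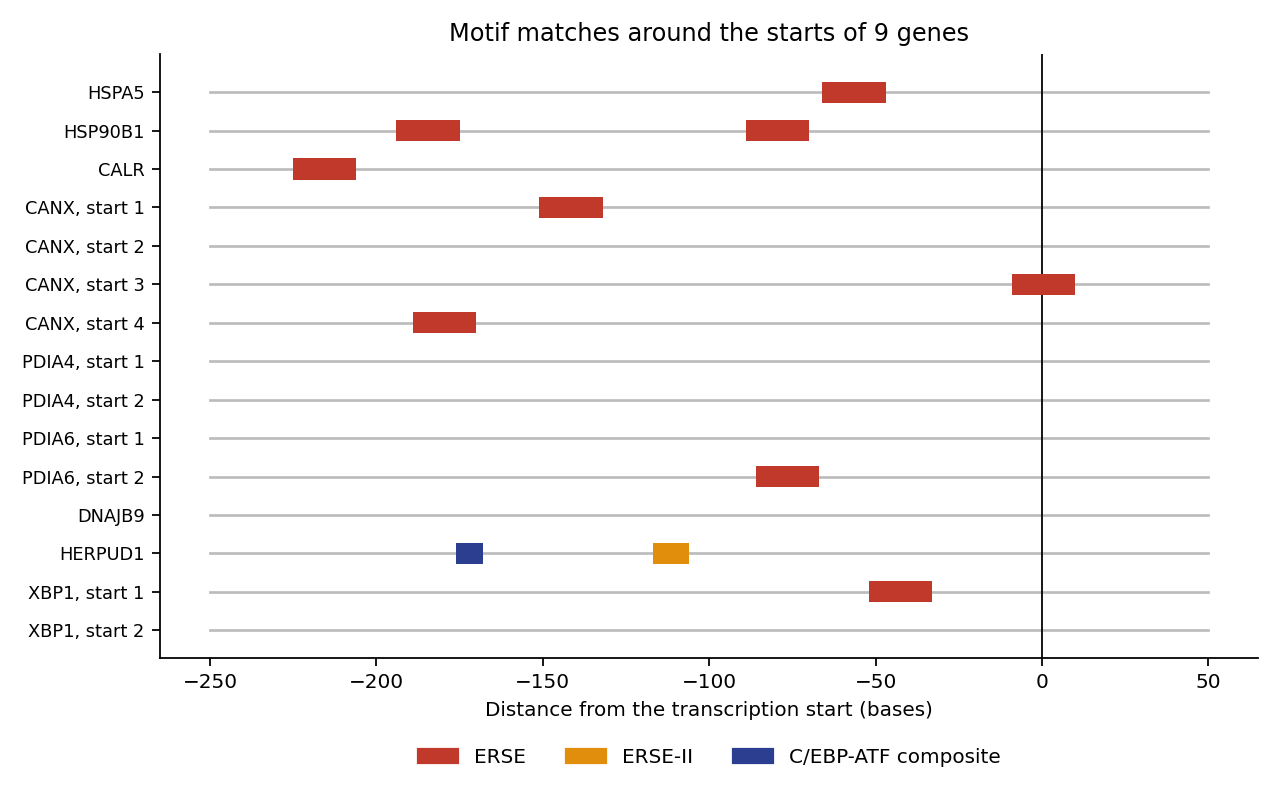
Each grey line is a RefSeq window around an annotated start of 1 of 9 genes, plotted by distance from the start in bases, and each coloured box is a motif match on either strand. *HSPA5*, *HSP90B1*, *CALR*, *CANX*, *PDIA6* and *XBP1* hold an ERSE, *HERPUD1* holds an ERSE-II and a composite, and *PDIA4* and *DNAJB9* hold none of them.

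The libraries held from 3686828 to 10546786 reads counted on genes, with ASO_LINC replicate 3 the smallest, and the common biological coefficient of variation was 0.159. No library pair of a group agreed within sampling noise, with a chi-square per degree of freedom from 2.50, between ASO_LINC replicates 1 and 2, to 14.0. The labels do not state separate cultures. The study states biological triplicates for its experiments in general, unless a legend says otherwise. The p-values measure only the spread between these libraries, and how much of it is technical was not tested. Of the 6 markers of squamous cells looked up, 2 were among the 17222 gene names. *KRT5* was present at 94.2 to 117 CPM in ASO_CTRL and 62.5 to 77.6 CPM in ASO_LINC, and *KRT6A* was at no more than 2.05 CPM. *TP63*, *KRT14*, *DSG3* and *SOX2* were not among the names, so these markers give little support to a squamous type. ASO_LINC replicate 3 stood apart from the other ASO_LINC libraries: its simple epithelial keratins (4 of 6 markers listed) summed to 12400 CPM, beside 7462 and 7086 CPM in ASO_LINC replicates 1 and 2 and 11669 to 12612 CPM in ASO_CTRL. Mesothelial markers (4 of 4) summed to 632 to 832 CPM in ASO_CTRL and 208 to 322 CPM in ASO_LINC. That sum followed mainly *CALB2*, with means of 600 and 154 CPM. *UPK3B* (49.3 and 26.4 CPM) and *WT1* (45.9 and 36.5 CPM) were also lower, whereas *MSLN* had 29.0 and 31.0 CPM. Fibroblast markers (3 of 5) summed to 396 to 493 and 222 to 253 CPM. Here *COL1A1* had means of 320 and 124 CPM, *PDGFRB* 20.3 and 7.09 CPM and *THY1* 116 and 104 CPM. The mesothelial sum therefore does not show a joint change of its markers, and the 3 fibroblast means were all lower by unequal amounts. The 4 keratins did move together, each below every control in ASO_LINC replicates 1 and 2 but not in replicate 3. *KRT18*, for example, had 4963, 5246 and 5014 CPM in ASO_CTRL and 2917, 2874 and 5245 CPM in ASO_LINC. Of the hematopoietic markers *CD14* was at most 2.16 CPM. The log2 fold change of each of the 10 genes and the calls in each list of related genes are therefore also given without ASO_LINC replicate 3.

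All 10 genes passed the filter on low counts and were tested. A gene was called changed at an adjusted p below 0.01 and a log2 fold change beyond 0.5 (edgeR's quasi-likelihood test with Benjamini-Hochberg adjustment over 14660 genes). By this rule 0 of the 10 were called, against 7.54% of all tested genes (4.91% higher and 2.63% lower), and DESeq2 and limma-voom also called 0. At an unadjusted p below 0.05 there were 3, *HSPA5*, *XBP1* and *HERPUD1*, where 32.4% of all genes passed, and at an adjusted p below 0.05 there was 1, *HSPA5*, where 18.0% did. Between the groups, 3 of the 10 had no overlap and were higher in ASO_LINC (18.7% of all genes) and 1 had no overlap and was lower (17.3%), together 4 against a background of 36.1%. These shares lie near or under those of all tested genes, except that of the 3 higher without overlap, which is above its background. With only 10 genes, that difference was not tested. The log2 fold changes ran from −0.32 to 0.41 with a median of 0.12, beside a median of −0.0027 over all genes, and 6 were above 0. The 10 genes together took 0.285%, 0.293% and 0.285% of the reads on genes in the ASO_CTRL libraries and 0.321%, 0.329% and 0.298% in the ASO_LINC libraries, with ASO_LINC replicate 3 the closest to the controls. In bulk RNA, a change in the number of cells of a type and a change in RNA per cell cannot be told apart.

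*HSPA5* encodes BiP, the ER member of the HSP70 family, which binds unfolded chains and holds the sensors inactive, and is a standard reporter of ATF6 activity (GRCh37 chr9:127997132-128003661, minus strand). Its level was 484, 498 and 494 CPM in ASO_CTRL replicates 1 to 3 and 714, 678 and 568 CPM in ASO_LINC replicates 1 to 3. The 3 controls lay close together and every ASO_LINC library was above them, with replicate 3 the nearest. The means were 492 ± 7.17 and 653 ± 76.4 CPM (SD, n = 3 each), a log2 fold change of 0.41 (SE 0.12, 95% interval 0.14 to 0.68, adjusted p = 0.0429 by edgeR's quasi-likelihood test), which did not pass the rule for a call. Without ASO_LINC replicate 3 it was 0.50 (adjusted p = 0.00226 by the same test) and the gene was called, in a fit that called 17.2% of all genes. Over all alternatives the value stayed between 0.34 and 0.50, and the adjusted p ran from 0.00226 to 0.179.

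*HSP90B1* encodes GRP94, the HSP90 paralog of the ER lumen, a chaperone of integrins and Toll-like receptors (GRCh37 chr12:104323885-104347709, plus strand). It was counted at 523, 530.0 and 561 CPM in ASO_CTRL and 621, 682 and 539 CPM in ASO_LINC. ASO_LINC replicates 1 and 2 were above all controls and replicate 3 lay among them. From 538 ± 20.2 to 614 ± 71.8 CPM (SD, n = 3 each), the log2 fold change was 0.19 (SE 0.12, 95% interval −0.083 to 0.47, adjusted p = 0.319 by edgeR's quasi-likelihood test), and without ASO_LINC replicate 3 it was 0.28 (adjusted p = 0.0512). Processed copies of this gene share its sequence, and the reads counted on *HSP90B2P* and *HSP90B3P* came to between 14.3% and 19.4% of those on *HSP90B1* in a library. With the copies' reads added, an alternative chosen after the values were seen, the log2 fold change was 0.22 (adjusted p = 0.246).

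*DNAJB9* encodes ERdj4, a J-domain partner of BiP and a target of spliced XBP1 (GRCh37 chr7:108210311-108215294, plus strand). It was the lowest of the 10 genes, with 113, 157 and 250 reads in the ASO_CTRL libraries and 164, 94 and 68 in the ASO_LINC libraries. On the CPM scale these were 15.2, 27.0 and 23.8 against 24.0, 16.0 and 18.4, so the groups overlapped almost fully. The log2 fold change of −0.16 (SE 0.23, 95% interval −0.68 to 0.36, adjusted p = 0.677 by edgeR's quasi-likelihood test) had the widest interval of the 10, and without ASO_LINC replicate 3 it was −0.12.

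*CALR* encodes calreticulin, a calcium-binding lectin chaperone of the lumen that holds glycoproteins with a trimmed glucose (GRCh37 chr19:13049392-13055303, plus strand). Its level was 605, 439.7 and 467 CPM in ASO_CTRL and 357, 398 and 453 CPM in ASO_LINC. ASO_CTRL replicate 1 was far above the other libraries, and ASO_LINC replicate 3 lay between ASO_CTRL replicates 2 and 3. The means of 504 ± 88.7 and 402 ± 48.0 CPM (SD, n = 3 each) gave a log2 fold change of −0.32 (SE 0.15, 95% interval −0.66 to 0.011, adjusted p = 0.168 by edgeR's quasi-likelihood test), the lowest of the 10. It was −0.42 (adjusted p = 0.0392) without ASO_LINC replicate 3 and −0.17 (adjusted p = 0.529) without ASO_CTRL replicate 1, so a single library decides its size.

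*CANX* encodes calnexin, the membrane-bound counterpart of calreticulin (GRCh37 chr5:179105629-179158642, plus strand). It was counted at 269.8, 354 and 310.0 CPM in ASO_CTRL and 335, 333 and 304 CPM in ASO_LINC. All ASO_LINC libraries lay within the range of the controls. The log2 fold change was 0.058 (SE 0.13, 95% interval −0.24 to 0.35, adjusted p = 0.803 by edgeR's quasi-likelihood test), 0.10 without ASO_LINC replicate 3, and −0.034 without ASO_CTRL replicate 1, the lowest control.

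*PDIA3* encodes ERp57, the disulfide isomerase that works with calnexin and calreticulin on glycoproteins (GRCh37 chr15:44038592-44065477, plus strand). Its level was 186, 167 and 167 CPM in ASO_CTRL and 150.0, 143 and 195 CPM in ASO_LINC. ASO_LINC replicates 1 and 2 were below all controls and replicate 3 was above them. The log2 fold change of −0.093 (SE 0.14, 95% interval −0.41 to 0.23, adjusted p = 0.701 by edgeR's quasi-likelihood test) became −0.24 (adjusted p = 0.102) without that library. Reads on its copy *PDIA3P* came to between 9.43% and 17.4% of its own, and with these added the value was −0.046.

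*PDIA4* encodes ERp72, a disulfide isomerase with several thioredoxin-like domains (GRCh37 chr7:148700154-148725754, minus strand). It was counted at 196, 188 and 204 CPM in ASO_CTRL and 175, 182 and 179 CPM in ASO_LINC. Every ASO_LINC library was below every control by a small margin. From 196 ± 7.67 to 179 ± 3.30 CPM (SD, n = 3 each), the log2 fold change was −0.13 (SE 0.11, 95% interval −0.39 to 0.12, adjusted p = 0.457 by edgeR's quasi-likelihood test), and it was −0.13 without ASO_LINC replicate 3 as well.

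*PDIA6* encodes P5, a disulfide isomerase that associates with BiP (GRCh37 chr2:10923517-10978103, minus strand). Its level was 446, 464 and 420.0 CPM in ASO_CTRL and 560.1, 557 and 440.4 CPM in ASO_LINC. As for *HSP90B1*, ASO_LINC replicates 1 and 2 were above all controls and replicate 3 lay among them. The means of 443 ± 22.3 and 519 ± 68.1 CPM (SD, n = 3 each) gave a log2 fold change of 0.23 (SE 0.13, 95% interval −0.060 to 0.52, adjusted p = 0.258 by edgeR's quasi-likelihood test), and 0.33 (adjusted p = 0.0232) without ASO_LINC replicate 3. Both were the extremes of *PDIA6* with a single library left out, where the value fell to 0.17 and the adjusted p of this test rose to 0.545. Of its annotated exonic bases 25.2% also belong to *ATP6V1C2* on the other strand, on which no library had more than 4 reads. The strand setting of the counting is not given in the sources used here.

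*HERPUD1* encodes a membrane protein that recruits the ubiquitin ligase complex of ER-associated degradation, and its promoter is a target of ATF6, XBP1 and ATF4 (GRCh37 chr16:56966054-56978776, plus strand). It was counted at 123, 115 and 115 CPM in ASO_CTRL and 132, 148 and 153 CPM in ASO_LINC. The groups did not overlap, and ASO_LINC replicate 3 was the highest library, as it was for *PDIA3*. From 118 ± 4.67 to 144 ± 11 CPM (SD, n = 3 each), the log2 fold change was 0.29 (SE 0.12, 95% interval 0.023 to 0.57, adjusted p = 0.124 by edgeR's quasi-likelihood test). Without ASO_LINC replicate 3 it was 0.25 (adjusted p = 0.0904), and with a single library left out the adjusted p of this test ran up to 0.312.

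*XBP1* encodes the transcription factor whose mRNA IRE1 splices, and the gene is itself induced by ATF6 (GRCh37 chr22:29190543-29196585, minus strand). Its level was 87.1, 103 and 97.2 CPM in ASO_CTRL and 119, 127 and 123 CPM in ASO_LINC. All ASO_LINC libraries were above all controls, and they lay closer to each other than the controls did. The means of 95.7 ± 8.06 and 123 ± 3.59 CPM (SD, n = 3 each) gave a log2 fold change of 0.36 (SE 0.12, 95% interval 0.088 to 0.64, adjusted p = 0.0670 by edgeR's quasi-likelihood test). It was 0.36 (adjusted p = 0.0268) without ASO_LINC replicate 3. That was the lowest adjusted p with a single library left out, where this test gave up to 0.233 and the value ran from 0.30 to 0.42. Reads per gene do not separate the spliced from the unspliced form, so the output of IRE1 itself was not measured.

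**Figure D2:**
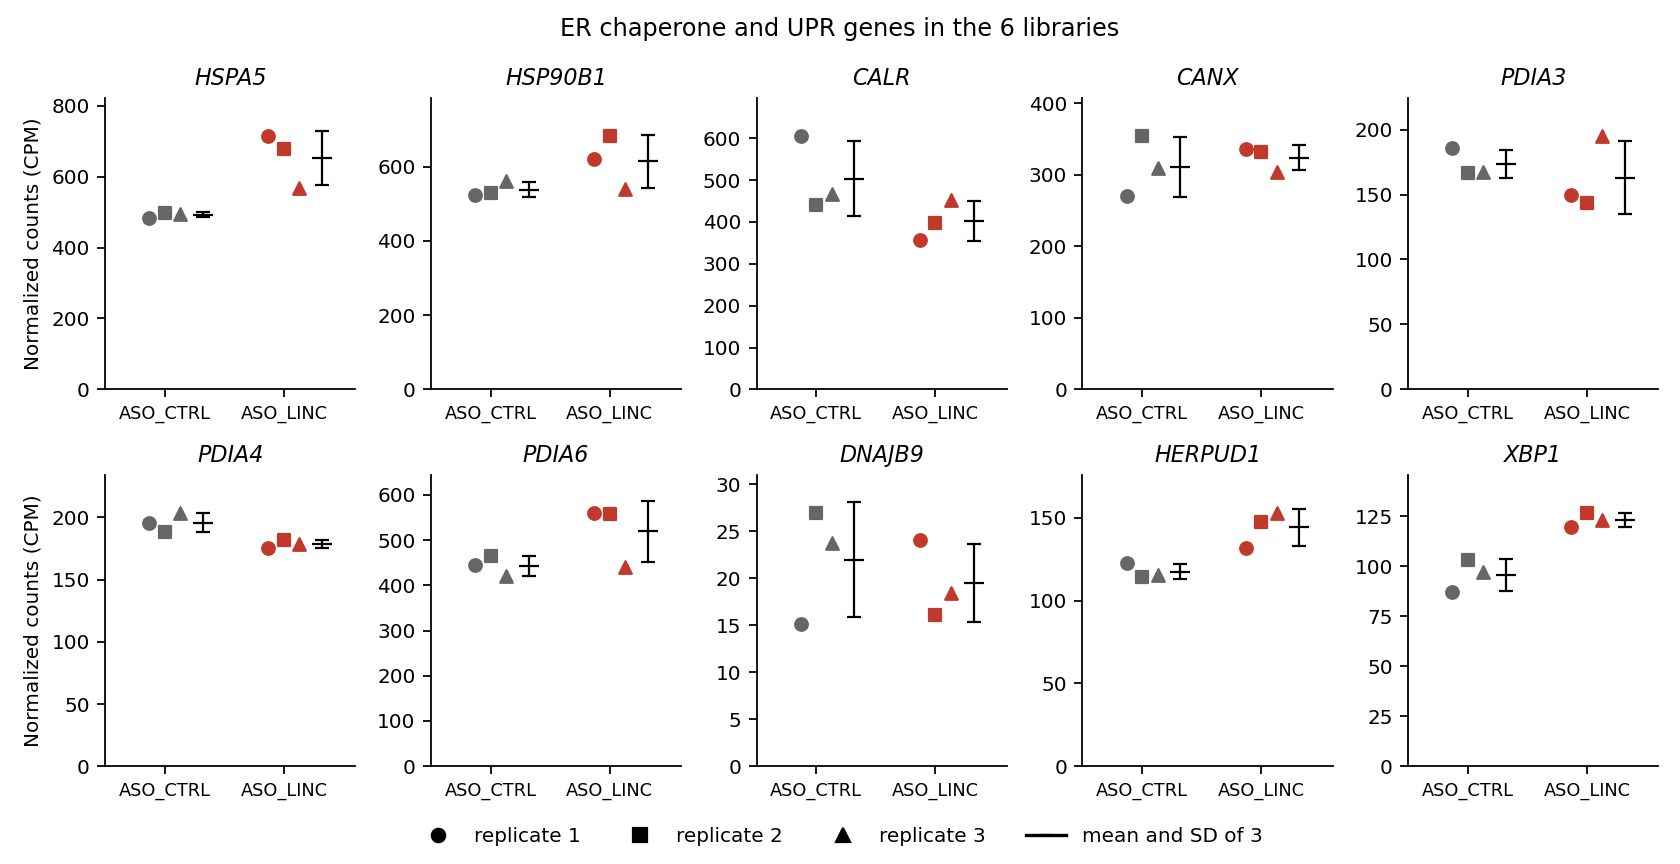
Normalized counts (CPM) of the 10 genes in the 3 ASO_CTRL libraries (grey) and the 3 ASO_LINC libraries (red), with the replicate given by the shape of the point and the mean and SD of 3 libraries beside it; each axis starts at 0. The groups do not overlap for *HSPA5*, *HERPUD1* and *XBP1*, which were higher in ASO_LINC, and for *PDIA4*, which was lower, and the ASO_LINC replicate 3 triangle lies among or nearest to the controls for *HSPA5*, *HSP90B1* and *PDIA6*.

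The genes did not move as a block within the libraries. Relative to the control mean, the changes in ASO_LINC replicates 1, 2 and 3 on the log2 CPM scale were 0.54, 0.46 and 0.21 for *HSPA5*, whereas they were −0.48, −0.33 and −0.14 for *CALR*, another abundant ERSE gene. For *HSP90B1* they were 0.21, 0.34 and 0.0036, and for *PDIA6* 0.34, 0.33 and −0.0083, which is at the control level in the third library. *XBP1* (0.32, 0.41 and 0.37) and *HERPUD1* (0.17, 0.33 and 0.38) kept their size in ASO_LINC replicate 3. The median over the 10 genes was 0.17, 0.22 and −0.0024 in the 3 libraries. The keratin sum given above separates ASO_LINC replicate 3 from the other ASO_LINC libraries in the same way as *HSPA5*, *HSP90B1*, *PDIA6*, *CALR* and *PDIA3* do, and its part in these values was not tested.

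No gene's 95% interval reached beyond −0.68 or 0.68 on the log2 scale, as the plot of fitted changes shows. Only the intervals of *HSPA5*, *XBP1* and *HERPUD1* left out 0. An adjusted p above the threshold does not show that the other genes were the same in both groups.

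**Figure D3:**
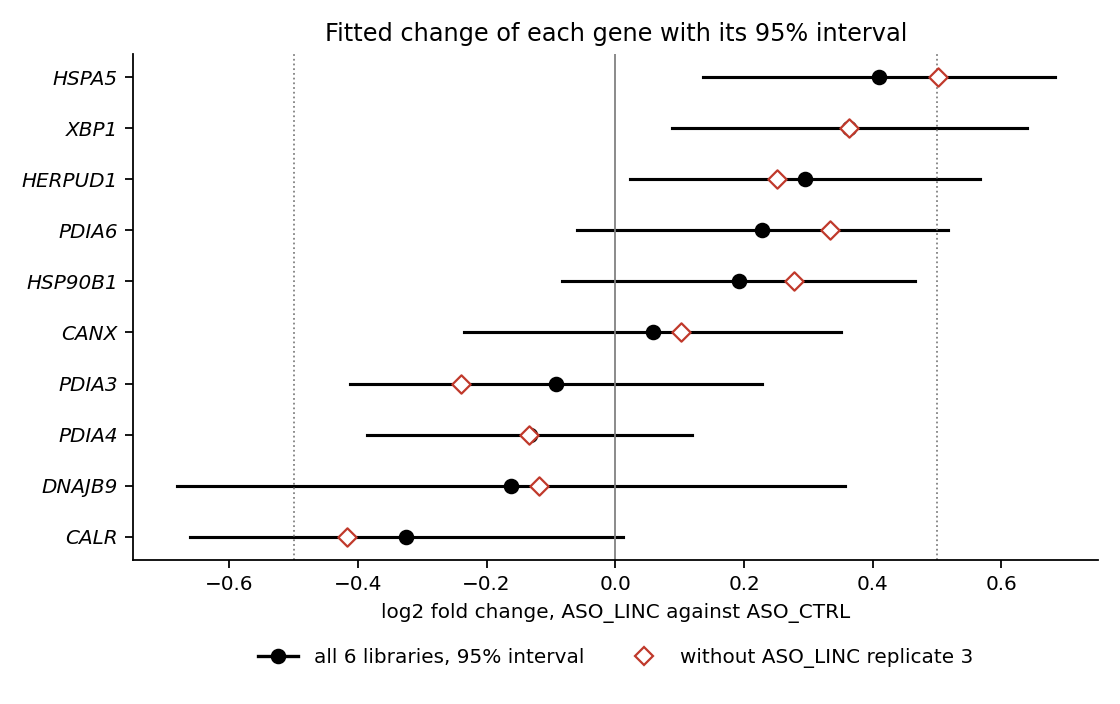
Fitted log2 fold change of ASO_LINC against ASO_CTRL for each of the 10 genes over all 6 libraries (black points, lines for the 95% interval) and without ASO_LINC replicate 3 (open red diamonds), with dotted lines at the fold change bound of 0.5 in either direction. *HSPA5* (0.41), *XBP1* (0.36) and *HERPUD1* (0.29) have intervals above 0, *CALR* is lowest at −0.32, and *HSPA5* reaches 0.50 without ASO_LINC replicate 3.

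Levels of different genes were compared as CPM per kilobase of transcript. In ASO_CTRL, *CALR* was the highest, with a mean level of 265 CPM per kb (231 to 318 over the libraries), followed by *PDIA6* at 195 and *HSP90B1* at 193, whose libraries overlapped, and *HSPA5* at 126. *PDIA4* (70.8), *CANX* (63.3), *XBP1* (53.5) and *PDIA3* (47.1) formed a middle group in which each gene's libraries overlapped those of the next. *HERPUD1* was at 41.2 and *DNAJB9* at 9.12 CPM per kb. In ASO_LINC the mean levels of *PDIA6*, *HSP90B1* and *CALR* were 228, 221 and 212 CPM per kb, and the libraries of the 3 genes overlapped, so *CALR* was no longer above the others. *HSPA5* was at 167 CPM per kb and remained below them on average. Because cDNA was primed from the poly(A) end, reads may not scale with transcript length, and this was not tested.

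The remaining genes of the pathways were taken from lists written by hand, in which 131 genes were tested and 18 were called, 14 higher and 4 lower. Of all tested genes 7.54% were called (4.91% higher and 2.63% lower), and the fit without ASO_LINC replicate 3 called 17.2%. These shares are the background for the counts of each list. The other ER chaperones and co-chaperones gave 0 calls among 15 by edgeR, DESeq2 or limma-voom, with a median log2 fold change of −0.15 and 11 values below 0. At an unadjusted p below 0.05 there were 5 of 15, near the 32.4% of all genes. Without ASO_LINC replicate 3 there were 3 calls, all lower, near the 17.2% of all genes called in that fit. Further textbook targets of ATF6 and XBP1, named after their values were seen, lay on both sides of 0. *HYOU1* (−0.10), *DNAJB11* (−0.15), *DNAJC3* (−0.12), *SDF2L1* (−0.35), *CRELD2* (−0.53) and *MANF* (−0.61, adjusted p = 0.0396 by edgeR's quasi-likelihood test) of this list had values below 0 and *DNAJC10* (0.29) had a value above it. In the lists for degradation and the COPII coat, *EDEM1* (0.67, adjusted p = 0.0202 by the same test), *SEL1L* (0.30) and *SEC24D* (0.95, adjusted p = 0.0122) had values above 0. The degradation list had 13 values above 0 and 6 below it, such as *DERL2* (−0.10). The COPII list had 9 above 0 and 4 below it, such as *SEC23B* (−0.089). The genes named here therefore do not stand for their lists. The smallest p-values of the chaperone list were those of *SERPINH1*, the collagen chaperone HSP47, at 117 CPM in ASO_CTRL and 82.1 CPM in ASO_LINC (−0.51, adjusted p = 0.0274), and *DNAJC1*, a BiP partner, at 51.5 and 70.6 CPM (0.46, adjusted p = 0.0335).

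Among the other disulfide isomerases and oxidases, 2 of 13 were called higher and 0 lower, with a median of 0.14. This became 3 higher without ASO_LINC replicate 3, and 1 higher with any 1 of the other 5 libraries left out. *ERO1A*, the oxidase that recharges disulfide isomerases (listed under its older symbol *ERO1L*), rose from 65.5 ± 13.0 to 242 ± 55.1 CPM (SD, n = 3 each), a log2 fold change of 1.89 (adjusted p = 0.000196 by edgeR's quasi-likelihood test), beside −0.093, −0.13 and 0.23 for *PDIA3*, *PDIA4* and *PDIA6*. *PDIA5*, a further isomerase, rose from 47.3 ± 3.21 to 74.5 ± 3.23 CPM (log2 fold change 0.65, adjusted p = 0.00649).

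Of the calnexin cycle list 0 of 10 were called by edgeR or limma-voom and 1 by DESeq2 (median −0.044). At an unadjusted p below 0.05 there were 2, where 32.4% of all genes passed. *LMAN1*, a cargo receptor, had 0.59 (adjusted p = 0.0120 by edgeR's quasi-likelihood test) and *GANAB*, the subunit of glucosidase II that makes the glycans *CALR* and *CANX* bind, −0.54 (adjusted p = 0.0319). Without ASO_LINC replicate 3 this list had 2 calls higher and 1 lower.

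Of the ER-associated degradation genes 0 of 19 were called higher and 1 lower (median 0.030). DESeq2 called 2 higher and 1 lower, and the fit without ASO_LINC replicate 3 called 3 higher and 1 lower. With any 1 of the other 5 libraries left out, or with a replicate block, 0 were called. The number of calls in this list and their balance of higher and lower therefore depended on the setting. *EDEM2*, a mannosidase of this route, fell from 21.9 to 12.0 CPM (log2 fold change −0.86, adjusted p = 0.00602 by edgeR's quasi-likelihood test over all 6 libraries), and *SELENOS*, a partner of the p97 ATPase, had 0.53 (adjusted p = 0.0130). In the translocon list 1 of 18 was called higher and 0 lower (median −0.050), which was *SSR3*, a subunit of the translocon-associated complex, from 194 to 310.4 CPM (0.68, adjusted p = 0.00502), while the channel subunit gene *SEC61B* had −0.51 (adjusted p = 0.0140). The fit without ASO_LINC replicate 3 called 3 of this list higher and 1 lower, DESeq2 called 1 higher and 1 lower, and with any 1 of the other 5 libraries left out, or with a replicate block, 0 were called. Of the COPII coat and KDEL receptor genes 2 of 13 were called higher and 0 lower (median 0.19), *SEC24A* at 1.65 (adjusted p = 0.00497) and *SEC31A* at 0.74 (adjusted p = 0.00940), both parts of the coat of ER exit vesicles. These calls depended on the number of libraries: 3 were called without ASO_LINC replicate 3, 0 with any 1 of the other 5 libraries left out, and 1 with a replicate block, upper quartile scaling or at least 10 counts in every library. The KDEL receptors, which return *HSPA5*, *HSP90B1* and *CALR* products to the ER, were not called.

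The UPR sensors and the proteases that cleave ATF6 gave 0 calls among 7 by edgeR, DESeq2 or limma-voom (median 0.050), and the number at an unadjusted p below 0.05, or called without ASO_LINC replicate 3, was 0 as well. The smallest p-values were those of *ATF6B*, a paralog of *ATF6*, at 0.43 (adjusted p = 0.171 by edgeR's quasi-likelihood test), and *MBTPS1*, the site-1 protease, at 0.20 (adjusted p = 0.292). In the list of eIF2alpha kinases and ATF4-CHOP genes, 8 of 15 were called higher and 0 lower, with a median log2 fold change of 0.97, and 9 were called without ASO_LINC replicate 3. The medians of this list were 0.94, 1.09 and 1.07 in ASO_LINC replicates 1, 2 and 3, beside 0.17, 0.22 and −0.0024 for the 10 chaperone and UPR genes. The most significant of them were *ATF3* (1.85, adjusted p = 1.97e-05), *DDIT3* (1.61, adjusted p = 5.21e-05) and *TRIB3* (1.32, adjusted p = 0.000115), a factor of the stress response, CHOP itself and a pseudokinase target of CHOP. The kinase genes of this list, *EIF2AK1*, *EIF2AK2* and *EIF2AK4*, were not among the calls. Both lists are set side by side with no test of the difference between them. Both were chosen with earlier results of these data known, so the 8 of 15 describes this list and is not independent evidence.

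ER calcium handling, on which *CALR* and *HSPA5* as calcium-binding chaperones bear, gave 1 of 9 called higher and 1 lower (median 0.39), and 1 higher and 2 lower without ASO_LINC replicate 3. *ITPR3*, a calcium release channel, rose from 106 to 215 CPM (log2 fold change 1.03, adjusted p = 0.000406 by edgeR's quasi-likelihood test), and *STIM1*, the sensor of ER calcium, fell from 41.8 to 17.9 CPM (−1.24, adjusted p = 0.000939). In the cytosolic and mitochondrial heat shock list 0 of 12 were called higher and 2 lower (median −0.22). Without ASO_LINC replicate 3 this was 1 higher and 4 lower, and with any 1 of the other 5 libraries left out, or with a replicate block, 1 was called, lower. *HSPA8*, the cytosolic HSP70 cognate and a relative of *HSPA5*, fell from 1849 to 804 CPM (−1.20, adjusted p = 0.000340), and *HSPA1A*, whose near-identical copy *HSPA1B* makes its count uncertain, fell from 109 to 64.0 CPM (−0.78, adjusted p = 0.00745). Of the HSP70 genes of the ER, none of which was called, *HSPA5* had 0.41, *HYOU1* −0.10 and *HSPA13* 0.050.

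**Figure D4:**
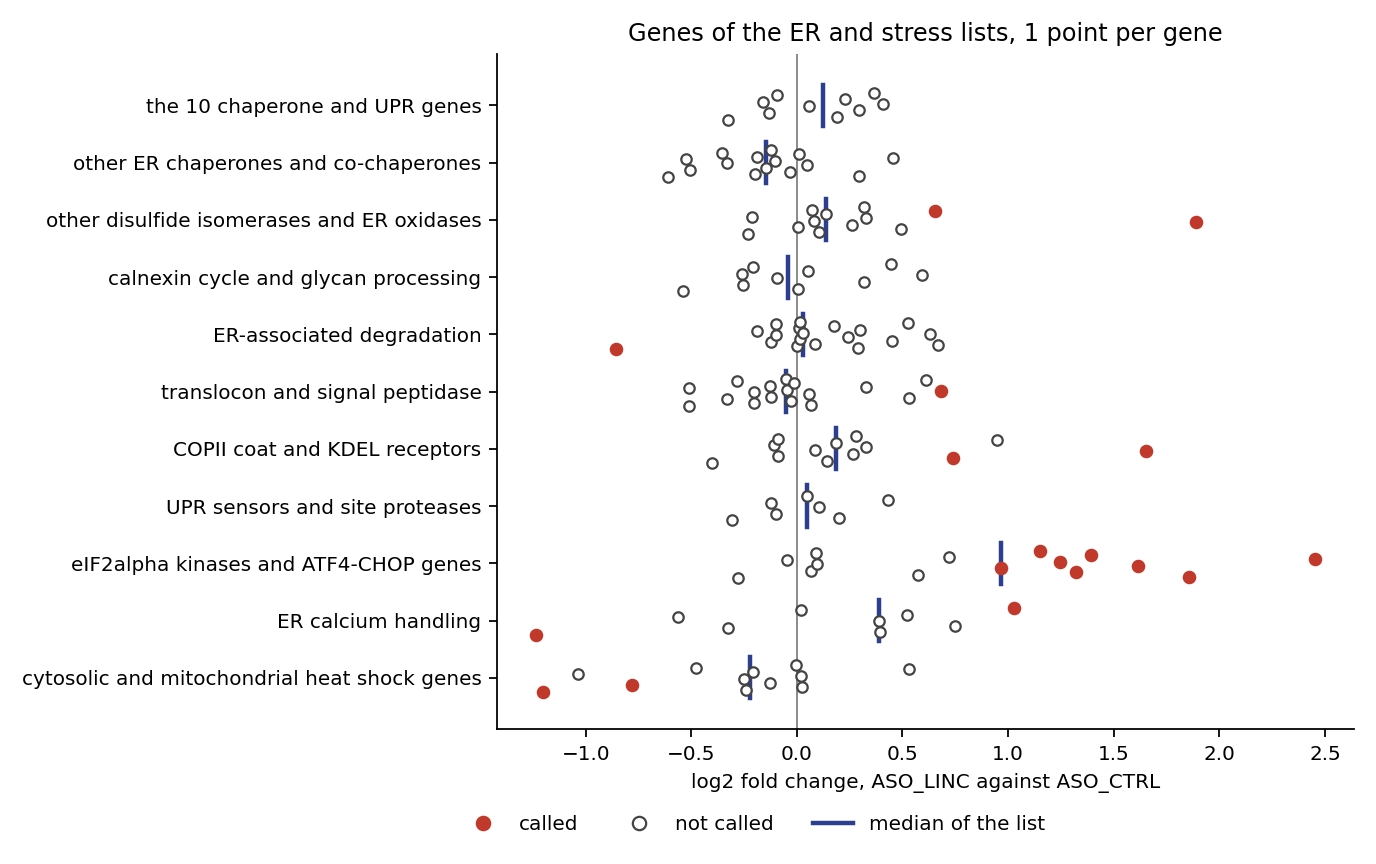
Each point is the fitted log2 fold change of 1 gene (ASO_LINC against ASO_CTRL), filled red where the gene was called, with the median of each list as a blue bar. The 10 chaperone and UPR genes lie between −0.32 and 0.41 with no call, and the ATF4-CHOP list has 8 calls and a median of 0.97. The lists were chosen with earlier results of these data known.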

How the data were processed

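RNA of 6 libraries of H226 cells was sequenced by the authors as single reads and aligned to hg19 with STAR. The study's methods text gives BJ fibroblasts for this experiment, but the sample labels give H226, which is used here. Per the submitters' processing notes edgeR was also used. The deposited table holds raw counts per gene name, not normalized. The counting tool, annotation and strand setting are not given in the sources used here. The 4 rows of unassigned reads (24.8% to 28.1% of each library's reads) were left out, and 21 names turned into dates were used as listed.

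Counts were tested over 14660 genes by the quasi-likelihood F-test of edgeR 4.0.16 under R 4.3.3 (filterByExpr, TMM, no block), with Benjamini-Hochberg adjustment. CPM are counts relative to the reads on genes of a library, scaled by TMM. Changes of single libraries used a prior count of 2. Depth ranged from 3686828 to 10546786 reads on genes, so low genes such as *DNAJB9* are the least precise. With 3 libraries against 3, an exact permutation test cannot give a two-sided p below 0.1. DESeq2 1.42.0, limma 3.58.1 (voom), other scalings and filters, an adjusted p of 0.05, a replicate block, leaving out each library and adding the reads of near-identical copies were alternatives. The procedure was tested on simulated data.

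Beside the 10 genes, up to 3 called genes with the smallest p-values per list were named, and the smallest p-values up to 2 genes where fewer were called. Other genes were named outside this rule, and not all of them are marked. Among those without a mark are the eIF2alpha kinase genes, *HSPA1B* and, beside *HSPA5*, *HYOU1* and *HSPA13*. The genes and lists were chosen with earlier results of these data known. Positions and lengths came from GENCODE v44 lifted to GRCh37, promoter windows from RefSeq (GRCh38.p14), and the 2 builds were not mixed.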

Additional observations from a re-analysis of the deposited data

How the results depend on the processing

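None of the 10 genes was called under any alternative except *HSPA5*, called without ASO_LINC replicate 3, so the number of these genes called ranged from 0 to 1 when each library was left out. Of 160 values of single genes under alternatives, 157 kept their direction and side of the threshold, 1 became a call and 2 changed sign: with a library left out, *CANX* ranged from −0.034 (without ASO_CTRL replicate 1) to 0.17, and *DNAJB9* from −0.37 to 0.0041 (without ASO_CTRL replicate 2). The cause was not tested. The number of all genes called was 2465 at an adjusted p below 0.05 with the fold change bound of 0.5 kept, and ranged from 359 (without ASO_CTRL replicate 3) to 2616 (without ASO_LINC replicate 3) with a library left out, with 493 without ASO_CTRL replicate 1, 505 without ASO_CTRL replicate 2, 425 without ASO_LINC replicate 1 and 531 without ASO_LINC replicate 2. The genes of the lists called were 33 by that rule, and from 10 (without ASO_CTRL replicate 3) to 37 (without ASO_LINC replicate 3) with a library left out, with 11 without ASO_CTRL replicate 2 or ASO_LINC replicate 1. The ATF4-CHOP list kept between 6 and 10 calls in all settings. With the replicate number as a block, 656 genes were called, 0 of the 10 among them, and *HSPA5* was at 0.40 (adjusted p = 0.115). Same-numbered libraries did not deviate together (r of 0.059, −0.17 and −0.21 over genes), so the numbers were not taken as pairs. No scaling moved the median of all genes by more than 0.1 on the log2 scale. Depth limits *DNAJB9* most, with 68 reads in its lowest library.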

Other observations

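Ratios of reads within a library do not depend on its scaling, and these were chosen after the values were seen and have no test. The reads on *HSPA5* per read on *CALR* were 0.80, 1.13 and 1.06 in ASO_CTRL and 2.0, 1.71 and 1.25 in ASO_LINC, so the groups did not overlap. Those on *HSP90B1* per read on *CALR* were 0.864, 1.21 and 1.2 in ASO_CTRL and 1.74, 1.71 and 1.19 in ASO_LINC, where ASO_LINC replicate 3 fell among the controls. The reads on *PDIA6* per read on *PDIA4* were 2.28, 2.47 and 2.06 in ASO_CTRL and 3.20, 3.06 and 2.46 in ASO_LINC, with replicate 3 again within the range of the controls. A ratio shows unequal change of its genes, not which of them moved.

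Taking every gene with an ERSE or ERSE-II in a RefSeq window, a set also chosen after the values were seen, 28 of 44 genes were tested. Of the 28, 0 were called higher and 1 lower (4.91% and 2.63% of all tested genes), and 16 had a log2 fold change above 0. The 7 of these that belong to the 10 genes had 6 values above 0 and a median of 0.23 on the log2 scale. The other 21 had a median of −0.0036, with 10 above 0. Split by motif, the 9 with an ERSE had a median of −0.30 and 3 values above 0, and the 12 with an ERSE-II a median of 0.17 and 7 above 0. The highest of the 21 was *NAV2* at 0.79 (adjusted p = 0.0168 by edgeR's quasi-likelihood test). Of ER genes among them, *CRELD2*, a secreted ER stress protein, had −0.53 (adjusted p = 0.0560 by edgeR's quasi-likelihood test), *HYOU1*, the large HSP70 of the ER, −0.10, and *SERP1*, a translocon-associated protein, −0.0036. The gene called lower was *PLS3*, an actin-bundling protein, at −0.89 (adjusted p = 0.00579).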
